A study of Homo sapiens with 6 samples.

Results

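Genes of nucleotide synthesis and salvage were followed in OV2008 cells transfected with a miR-328-3p mimic, a synthetic copy of that microRNA. The set was a fixed list of 43 genes for the purine, pyrimidine, deoxynucleotide and salvage steps. Each gene was read from the brightest probe set that carried its symbol alone, which left 39 genes measured among 18836 distinct genes tested. RRM1, UCK2 and NME2 stood only on probe sets that carry several symbols, and ADSS2 was not analysed here. All 39 lay above the filter on low signal, and each had a single such probe set.

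OV2008, an established human line, carries an ovarian cancer label here, although other work has traced it to a cervical carcinoma. The control group held 3 arrays from cells given a negative control (NC) miRNA, and the mimic group held 3 arrays from cells given the miR-328-3p mimic. All cells were transfected and taken after 3 days, and no untransfected cells were analysed here, so effects of the mimic and of the control miRNA cannot be told apart. Titles and source names set the groups, although the mimic samples' description field gives the control miRNA. Separate cultures are not mentioned in the labels, and p-values therefore cover the spread between these 6 samples, possibly a technical one.

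Values are on a scale taken as log2, with array medians from 4.10 to 4.17. Arrays of the same group correlated at 0.9953 to 0.9967, and arrays of different groups at 0.9925 to 0.9946. The epithelial markers EPCAM, KRT8, KRT18, KRT19 and CDH1 lay between 11.07 and 15.06 on every array, whereas the ovarian epithelium markers PAX8, WT1 and MUC16 lay between 3.38 and 4.48, around the array medians. The fibroblast markers COL1A1, COL1A2 and DCN lay between 3.61 and 4.43, and LUM fell below the filter. Of the leukocyte markers, PTPRC and CD14 fell below the filter and CD3E did not exceed 4.23, while CD68, which lysosomes of other cells also carry, lay at 7.97 to 8.16 in the control arrays and 8.93 to 9.07 in the mimic arrays. Some markers moved with the groups. CD68 rose by 0.99, and 4 of the 5 epithelial markers rose (80.0%, beside 7.21% of all genes tested). CDH1 rose by 0.66, KRT18 by 0.32, KRT8 by 0.23 and KRT19 by 0.20. KRT8 and KRT19 passed on 5 arrays only without mimic array 3. Dropping another array gave adjusted p of 0.0579 to 0.0857 for KRT8 and of 0.056 to 0.0846 for KRT19. Both calls were lost with quantile normalization (0.0964 and 0.106), no mean-variance trend (0.0642 and 0.0733) or a block for replicate number (0.0635 and 0.0774). The part of these marker differences in the results was not tested.

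Cells build purines stepwise on ribose phosphate until inosine monophosphate (IMP) is made, which is then turned into AMP or GMP. Pyrimidines are built as a ring first and joined to ribose phosphate afterwards. Ribonucleotide reductase converts ribonucleotides into the deoxynucleotides used for DNA, and salvage enzymes recover free bases and nucleosides. Dividing tumour cells draw on all of these routes, and several of the enzymes are targets of chemotherapy.

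The transfected molecule mimics a mature microRNA whose seed, bases 2 to 8 from its 5′ end, pairs with target mRNAs. Its sequence is shown because the mimic is the only difference between the groups that the labels name. It is given by RefSeq at chr16:67202327-67202348 on the minus strand of GRCh38.p14, with the seed in capitals. Sites for it in the members' mRNAs were not analysed here.
hsa-miR-328-3p: cUGGCCCUcucugcccuuccgu

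After the mimic, the nucleotide genes changed in both directions without a common shift. RRM2, the regulated subunit of ribonucleotide reductase, rose 1.79-fold, and the uridine phosphorylase gene UPP1 rose 1.3-fold. NME1, a nucleoside diphosphate kinase, fell 1.99-fold, the mitochondrial thymidine kinase TK2 fell 1.65-fold, and PPAT, which commits ribose phosphate to purines, fell 1.62-fold. Of the 39 genes, 4 rose, 10 fell and 25 did not pass a limma adjusted p of 0.05. That is 10.3% risen and 25.6% fallen, beside 7.21% of all genes tested that rose and 10.8% that fell. The risen share of the members was not stable: leaving out a control array or mimic array 1 or 2 left 2 rises (5.13%), beside 4.42% to 6.11% of all genes in those fits. With arrays centred on their medians it was again 5.13%, below the 6.26% of all genes. In RNA from a whole culture, fewer cells of a kind and less RNA per cell cannot be told apart. Together 35.9% of the measured members changed, beside 18.0% of all genes. These groups differ in signal: the lowest mean was 5.54 among the members and 3.47 among all genes tested. When the 50% of probe sets with the lowest signal were left out, 27.4% of all genes changed, and 5 members rose and 10 fell. The part of signal level in this and the later comparisons with all genes was not tested.

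The median log2 fold change of the 39 genes was -0.03, beside 0.01 for all genes tested. Their median size of change without regard to sign was 0.15, beside 0.11 for all genes. Within groups the members' median standard deviation was 0.0517 against 0.0662 for all genes. The groups did not overlap for 28 members, or 71.8%, beside 41.6% of all genes. Mimic lay above control for 13 and below for 15, beside 19.2% and 22.4% of all genes.

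**Figure D1:**
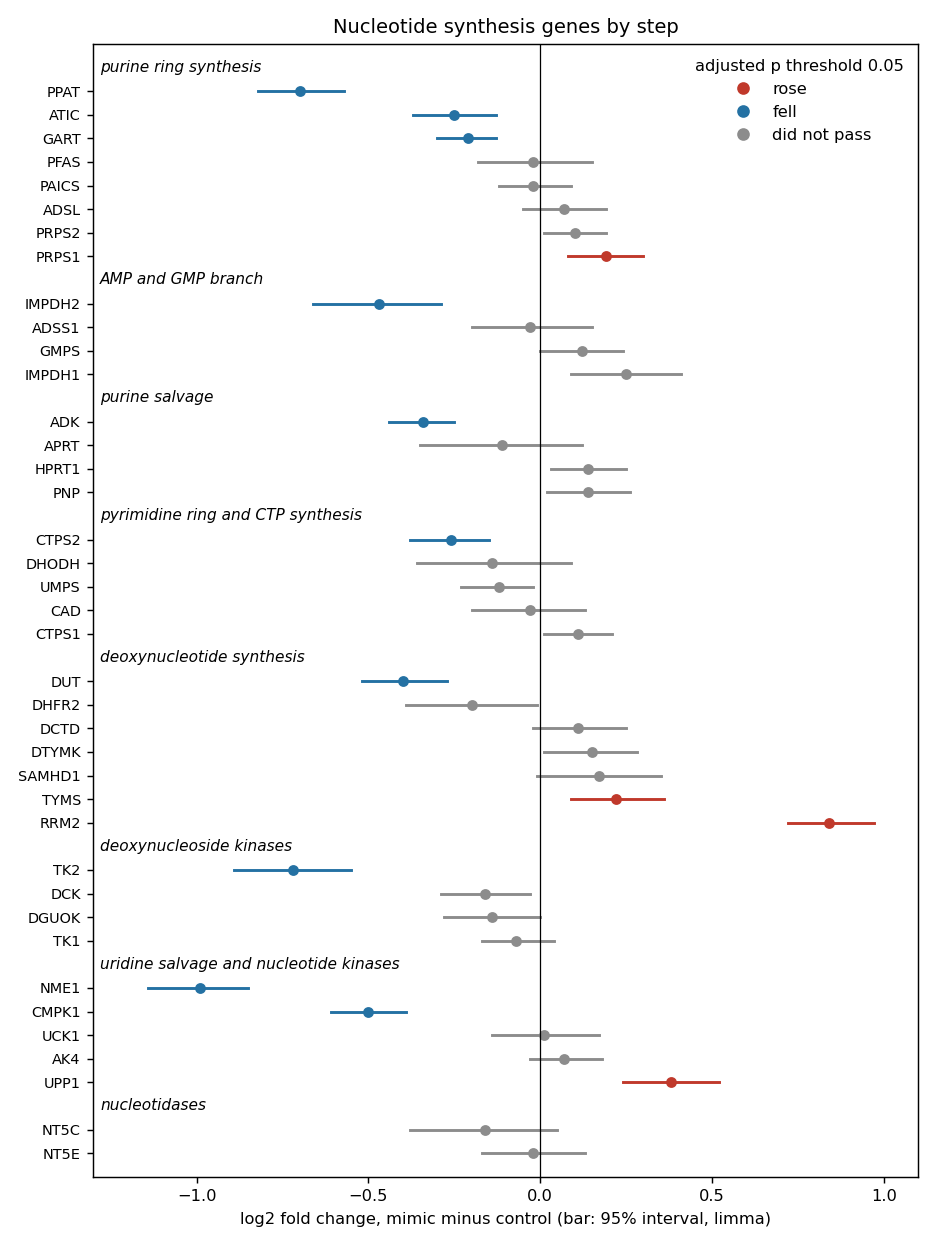
The x axis gives the log2 fold change of mimic minus control for each of the 39 measured genes, grouped by step, with bars for the 95% interval from limma and colours for the call. RRM2 at 0.84 stands alone on the right, and NME1 at -0.99, TK2 at -0.72 and PPAT at -0.70 stand farthest to the left.

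The purine ring is built from phosphoribosyl pyrophosphate, made by PRPS1 and PRPS2, through steps run by PPAT, GART, PFAS, PAICS, ADSL and ATIC. Of these 8 genes 1 rose (12.5%), 3 fell (37.5%) and 4 did not pass, beside 7.21% risen and 10.8% fallen among all genes. PPAT encodes the amidotransferase of the committed step. Its values were 11.28, 11.26 and 11.29 in the control arrays and 10.52, 10.54 and 10.68 in the mimic arrays. Every mimic array lay below every control array, and the means fell from 11.28 ± 0.0141 to 10.58 ± 0.0849 (SD, n = 3; limma log2 fold change -0.70 ± 0.0522 SE, adjusted p = 0.000634).

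GART, a trifunctional enzyme of the same route, stood at 10.89, 10.90 and 10.90 in the control arrays and at 10.68, 10.69 and 10.69 in the mimic arrays. The fall of 0.21 ± 0.0353 SE was small (adjusted p = 0.0119, limma). The standard deviations within the groups, 0.00763 and 0.00585, were well below the members' median of 0.0517. ATIC, which closes the ring to give IMP, stood at 10.81, 10.89 and 10.90 in the control arrays and at 10.63, 10.67 and 10.55 in the mimic arrays. It fell by 0.25 with no overlap between the groups (adjusted p = 0.0231, limma). PRPS1 stood at 13.02, 13.12 and 13.07 in the control arrays and at 13.31, 13.23 and 13.24 in the mimic arrays, a rise of 0.19 that only just passed (adjusted p = 0.047, limma).

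These smaller calls were lost in some fits on 5 arrays, with little change in size. The log2 fold changes in the 6 such fits ran from -0.22 to -0.21 for GART, from -0.28 to -0.22 for ATIC and from 0.16 to 0.21 for PRPS1. For GART the adjusted p became 0.0571 when control array 3 was dropped and 0.0554 when mimic array 2 was. For ATIC it became 0.0741 (control array 2 dropped), 0.0925 (control array 3), 0.0717 (mimic array 1), 0.0518 (mimic array 2) and 0.0648 (mimic array 3). PRPS1 passed in no fit on 5 arrays: dropping control array 1, 2 or 3 gave 0.102, 0.0569 or 0.14, and dropping mimic array 1, 2 or 3 gave 0.14, 0.108 or 0.093. PPAT passed in each of these fits.

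The other 4 genes of the ring did not pass. PAICS, which encodes a bifunctional enzyme of the ring, was at -0.02 with a 95% interval from -0.12 to 0.09. PFAS was also at -0.02, with an interval from -0.18 to 0.15. ADSL, the lyase that acts in both the ring and the AMP branch, was at 0.07, and PRPS2 was at 0.10 with an interval from 0.01 to 0.19. PRPS1 and PRPS2 are close paralogs, and probes shared between them would make their values uncertain.

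PPAT and PAICS lie head to head on opposite strands of chromosome 4, so the DNA between their starts is shown as the region upstream of both. In RefSeq on GRCh38.p14 it spans 136 bases, chr4:56435616-56435751, written on the plus strand with the PPAT start to its left and the PAICS start to its right. It is printed without capitals because it held none of the E2F or E-box letters that are spelled out with the other promoters, on either strand.
PPAT and PAICS, between the starts: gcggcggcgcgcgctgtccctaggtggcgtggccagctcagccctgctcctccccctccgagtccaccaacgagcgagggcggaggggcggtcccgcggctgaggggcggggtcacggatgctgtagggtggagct
The pair was chosen with its values known, so the difference is a description. The change in PPAT minus the change in PAICS was -0.68 on the log2 scale, with a 95% interval from -0.89 to -0.46 from the array values. Within each array the PPAT value minus the PAICS value was lower on all 3 mimic arrays than on all 3 control arrays, which gives an exact two-sided permutation p of 0.1, the smallest possible for 3 arrays against 3.

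In the branch from IMP to AMP and GMP, 1 of 4 measured genes fell and 3 did not pass. IMP dehydrogenase, the first enzyme towards GMP, has a pair of isozymes, and IMPDH2 is the form usually raised in dividing cells. IMPDH2 stood at 9.22, 9.20 and 9.16 in the control arrays and at 8.88, 8.70 and 8.59 in the mimic arrays. It fell by 0.47 ± 0.0768 SE on the log2 scale (adjusted p = 0.0107, limma), and the mimic arrays spread more than the control arrays without overlapping them.

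IMPDH1 went from 6.48 on all 3 control arrays to 6.75, 6.81 and 6.63, a difference of 0.25 that did not pass (adjusted p = 0.06, limma). It passed without mimic array 3 (0.0418), and when the 50% of probe sets with the lowest signal were left out (0.0446). The change in IMPDH1 minus that in IMPDH2 was 0.72, with an interval from 0.52 to 0.93. This pair was also chosen with its values known, so the difference is a description. GMPS, which makes GMP, was at 0.12, and ADSS1, the muscle-type adenylosuccinate synthase, was at -0.03 with an interval from -0.20 to 0.15.

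Among the 4 purine salvage genes, ADK alone passed. ADK, the kinase that returns adenosine to AMP, stood at 13.09, 13.01 and 12.99 in the control arrays and at 12.69, 12.69 and 12.66 in the mimic arrays, and fell by 0.34 ± 0.0406 SE (adjusted p = 0.00309, limma). HPRT1, which recovers hypoxanthine and guanine, was at 0.14 with an interval from 0.03 to 0.25. PNP, which splits purine nucleosides, was likewise at 0.14, with an interval from 0.02 to 0.26. For both of these genes every mimic array lay above every control array, as was so for 19.2% of all genes. Neither passed (adjusted p = 0.105 and 0.13, limma). APRT, the adenine salvage enzyme, was at -0.11 with an interval from -0.35 to 0.12.

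The pyrimidine route had 1 fall among 5 genes (20.0%, beside 10.8% of all genes). CTPS2, a CTP synthase isozyme, stood at 9.92, 10.02 and 9.92 in the control arrays and at 9.73, 9.68 and 9.66 in the mimic arrays. Its fall of 0.26 passed (adjusted p = 0.0168, limma), but not without control array 3 (0.05, over the threshold before rounding), mimic array 2 (0.0718) or mimic array 3 (0.056). Its isozyme CTPS1 was at 0.11 with an interval from 0.01 to 0.21. The change in CTPS1 minus that in CTPS2 was 0.37, with an interval from 0.27 to 0.48. Here too the pair was chosen with its values known.

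CAD, the multifunctional enzyme that starts the pyrimidine ring, was at -0.03 with an interval from -0.20 to 0.13. DHODH, the mitochondrial dehydrogenase of the fourth step, was at -0.14 with an interval from -0.36 to 0.09, and its control arrays ranged from 6.82 to 7.12. UMPS, which ends the route at UMP, was at -0.12 with an interval from -0.23 to -0.02 and did not pass (adjusted p = 0.151, limma). The 95% intervals of CAD, DHODH and UMPS thus reached no lower than -0.36 and no higher than 0.13.

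The deoxynucleotide genes held the largest rise. Ribonucleotide reductase needs a large subunit, RRM1, and a small one, RRM2, whose mRNA rises in S phase. RRM2 stood at 11.37, 11.28 and 11.22 in the control arrays and at 12.10, 12.18 and 12.11 in the mimic arrays. The lowest mimic array thus lay well above the highest control array, and the means went from 11.29 ± 0.0752 to 12.13 ± 0.0414 (SD, n = 3; limma log2 fold change 0.84 ± 0.0514 SE, adjusted p = 0.000315). By this value RRM2 ranked 114 from the top among 18836 genes.

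TYMS, thymidylate synthase and the target of fluorouracil, stood at 11.20, 11.21 and 11.14 in the control arrays and at 11.51, 11.35 and 11.37 in the mimic arrays. The groups were apart, but the rise of 0.22 was at the threshold (adjusted p = 0.0493, limma). It passed in no fit on 5 arrays: dropping control array 1, 2 or 3 gave 0.0917, 0.0988 or 0.161, and dropping mimic array 1, 2 or 3 gave 0.104, 0.0831 or 0.084.

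DUT, which removes dUTP and supplies the substrate of TYMS, moved the other way. It stood at 9.21, 9.35 and 9.23 in the control arrays and at 8.86, 8.85 and 8.89 in the mimic arrays, and fell by 0.40 ± 0.052 SE (adjusted p = 0.00452, limma). The other 4 measured genes of this step did not pass, although their groups did not overlap, as was so for 41.6% of all genes. DTYMK, the thymidylate kinase, was at 0.15, the dCMP deaminase DCTD at 0.11, and SAMHD1, which degrades deoxynucleotides, at 0.17. DHFR2, a retrocopy of the dihydrofolate reductase gene, was at -0.20 with an interval from -0.39 to -0.01. Its value is uncertain because it may include transcripts of the parent gene.

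The 4 deoxynucleoside kinases lay lower on every mimic array than on every control array, as did 22.4% of all genes, but 1 passed. For TK1 the highest mimic value, 11.29, lay just under the lowest control value, 11.31. TK2, which phosphorylates thymidine and deoxycytidine in mitochondria, stood at 6.41, 6.42 and 6.57 in the control arrays and at 5.79, 5.70 and 5.75 in the mimic arrays. It fell by 0.72 ± 0.0709 SE (adjusted p = 0.00161, limma). Its cytosolic counterpart TK1, a classical S phase enzyme, went from 11.31, 11.32 and 11.40 to 11.29, 11.25 and 11.29, a difference of -0.07 with an interval from -0.17 to 0.04. The change in TK1 minus that in TK2 was 0.66, with an interval from 0.57 to 0.74. TK1 and TK2 were likewise paired with their values known.

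The cytosolic deoxycytidine kinase DCK was at -0.16 and the mitochondrial deoxyguanosine kinase DGUOK at -0.14 (adjusted p = 0.116 and 0.2, limma). For that pair, likewise chosen with its values known, the difference between the changes was -0.02, with an interval from -0.24 to 0.19. TK2 and DGUOK serve the same organelle, and TK2 passed whereas DGUOK did not; the difference between those changes was not tested.

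Among the 5 measured genes of uridine salvage and nucleotide kinases, 1 rose (20.0%) and 2 fell (40.0%), beside 7.21% and 10.8% of all genes. UPP1, which splits uridine into uracil and ribose phosphate, stood at 6.70, 6.66 and 6.76 in the control arrays and at 7.13, 7.03 and 7.09 in the mimic arrays. It rose by 0.38 ± 0.0587 SE (adjusted p = 0.00905, limma) and passed with any array left out. CMPK1, the kinase of UMP and CMP, stood at 10.51, 10.45 and 10.40 in the control arrays and at 9.93, 10.00 and 9.92 in the mimic arrays. It fell by 0.50 ± 0.0465 SE (adjusted p = 0.00132, limma), with no overlap.

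NME1 had the largest fall of the set. It stood at 7.34, 7.39 and 7.30 in the control arrays and at 6.42, 6.32 and 6.30 in the mimic arrays, so all mimic arrays lay close to 1 unit lower. The log2 fold change was -0.99 ± 0.0606 SE (adjusted p = 0.000315, limma), which ranked 65 from the bottom among all genes. NME1 encodes a kinase that makes nucleoside triphosphates from diphosphates and was first known as a metastasis suppressor. Its neighbour NME2 is nearly identical and shares a readthrough transcript with it, so the value of NME1 is uncertain. The uridine kinase UCK1 was at 0.01, and AK4, a mitochondrial adenylate kinase, at 0.07 with an interval from -0.03 to 0.18.

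Neither nucleotidase passed. NT5C, which dephosphorylates deoxynucleotides in the cytosol, was at -0.16 with an interval from -0.38 to 0.05. NT5E, the surface enzyme CD73 that makes adenosine from AMP, was at -0.02 with an interval from -0.17 to 0.13. Over the whole set, the 25 members that did not pass lay between -0.20 and 0.25, and 10 of them (40.0%) had an unadjusted p under 0.05, beside 16.9% of all genes that did not pass.

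**Figure D2:**
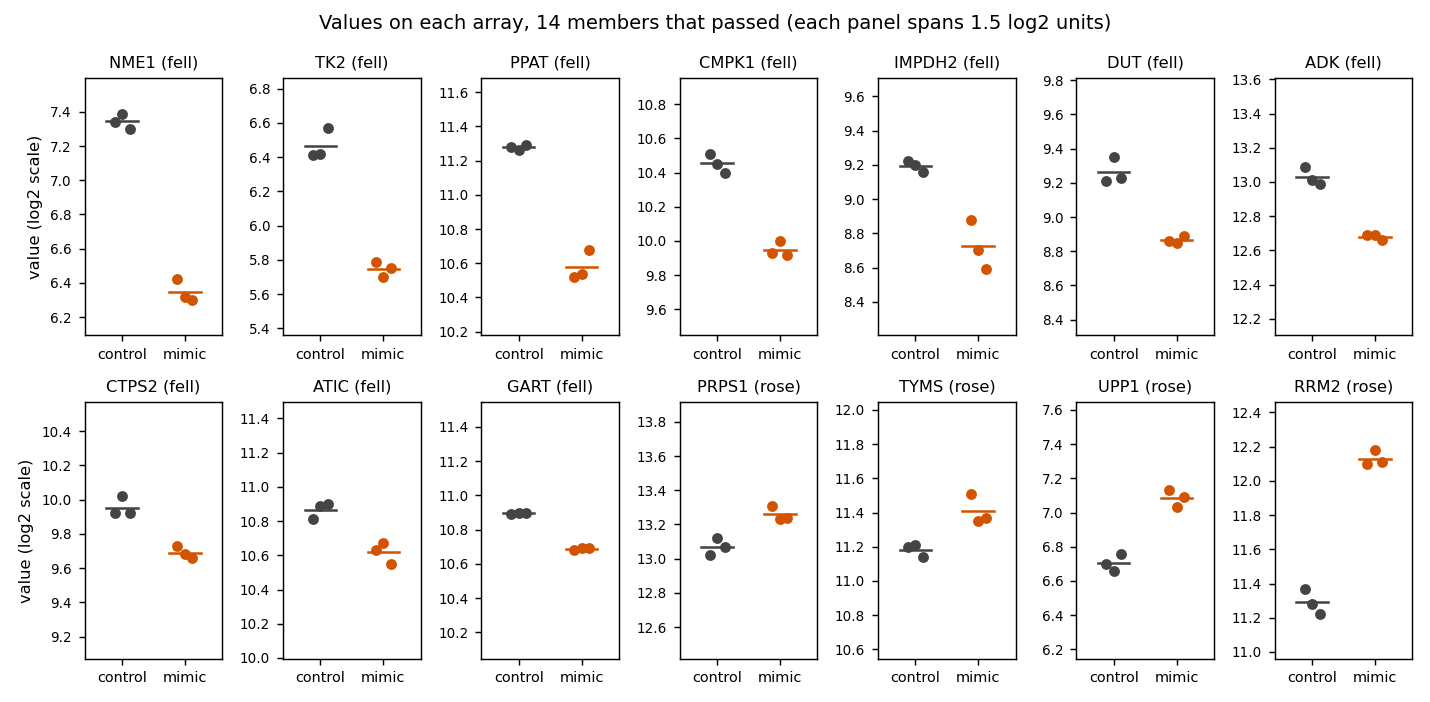
Each panel gives the log2-scale values of 1 of the 14 genes that passed, with a point per array and a bar at the mean of 3 arrays, and each y axis spans 1.5 units. In each panel the mimic points lie wholly above or wholly below the control points, with NME1 and RRM2 the farthest apart.

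Unequal change was compared in 6 pairs of genes with related roles or a shared start region, namely PPAT with PAICS, IMPDH1 with IMPDH2, CTPS1 with CTPS2, PRPS1 with PRPS2, TK1 with TK2 and DCK with DGUOK. The pairs were chosen with the values known. In 4 of them the within-array difference was apart between the groups, each with an exact two-sided permutation p of 0.1, or 0.15 after Benjamini-Hochberg adjustment over the 6 pairs, so none could reach 0.05 with 3 arrays a group. PRPS1 and PRPS2 changed by amounts that differed by 0.09, with an interval from -0.08 to 0.26.

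**Figure D3:**
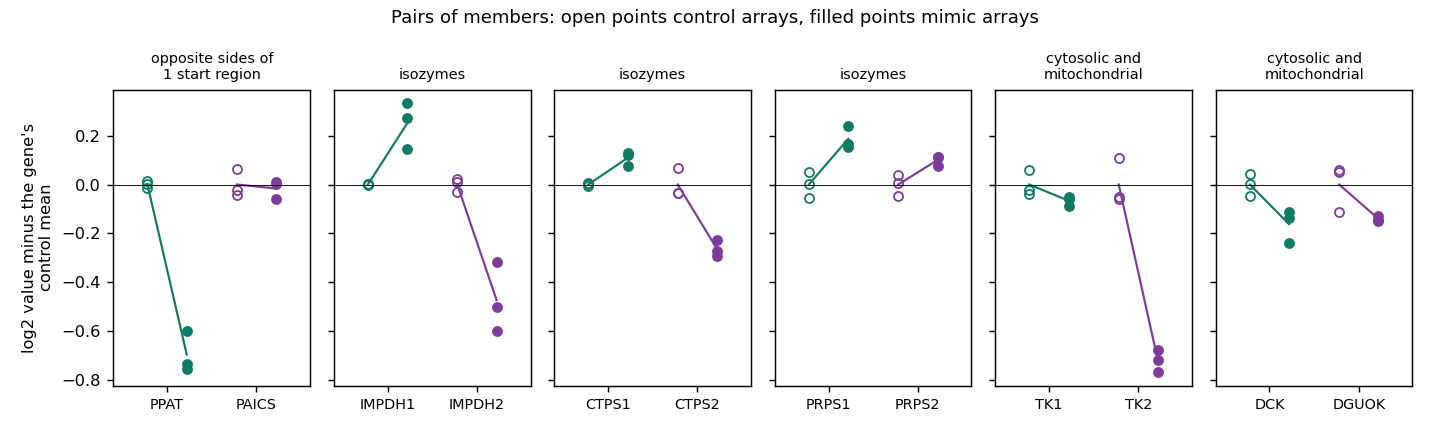
The y axis gives each log2 value minus the mean of that gene's control arrays, with open points for the 3 control arrays, filled points for the 3 mimic arrays and lines joining the group means. PPAT, IMPDH2, CTPS2 and TK2 drop while the mean changes of their partners lie between -0.07 and 0.25.

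The promoters of the set were searched for letters bound by E2F factors, which drive S phase genes, and for the E-box bound by MYC and related factors. Windows ran from 250 bases before to 50 after each start in RefSeq on GRCh38.p14, and 37 of the 39 genes had one. The E2F letters searched were TTTGGCG or else TTTCCCG, and likewise TTTGCCG or else TTTCGCG. On either strand, at least 1 of these was in a window of 11 of the 37 genes (29.7%). The share was 10.4% among 27305 RefSeq genes with a window, whether or not they were measured here. A match in any window of a gene counted, and some genes had several windows, DUT and AK4 having 4. Of the 11 members with E2F letters, TYMS rose, GART and DUT fell and 8 did not pass. The E-box letters CACGTG were in 7 of the 37 (18.9%), beside 8.77% of the 27305 genes. Of these 7, PPAT, ATIC and NME1 fell, and 9 of the 37 members with a window fell. PAICS, which did not pass, is also among the 7. The windows of PPAT and PAICS overlap, so 1 E-box may be counted for both.

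Upstream bases of TYMS and ATIC are shown as examples of a gene that rose with E2F letters and of a gene that fell with an E-box, both in capitals. The first covers chr18:657403-657652 and the second chr2:215311809-215312058, each on the plus strand of GRCh38.p14 and ending at the base before the start. A match describes the letters and not a bound site. The calls of both examples depended on single arrays: TYMS passed in no fit on 5 arrays, and ATIC lost its call in 5 of the 6. GART and DUT, which also held E2F letters, fell. The E-box of PPAT lay in its 300-base window but not between the starts, the window of ATIC held 2 E-boxes, and the windows of RRM2 held none of these letters.
TYMS upstream: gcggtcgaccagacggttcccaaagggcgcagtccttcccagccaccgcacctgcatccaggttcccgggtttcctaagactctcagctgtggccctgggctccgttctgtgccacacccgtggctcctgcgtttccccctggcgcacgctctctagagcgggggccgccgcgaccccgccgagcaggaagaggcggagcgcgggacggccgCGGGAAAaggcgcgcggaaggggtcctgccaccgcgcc
ATIC upstream: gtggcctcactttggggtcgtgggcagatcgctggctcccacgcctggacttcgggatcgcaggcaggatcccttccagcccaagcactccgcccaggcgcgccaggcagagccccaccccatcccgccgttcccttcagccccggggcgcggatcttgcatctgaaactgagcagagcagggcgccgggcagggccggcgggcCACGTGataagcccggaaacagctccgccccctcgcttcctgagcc

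Because RRM2, TYMS and TK1 follow the cell cycle, a list of 28 other S phase genes is given beside them. Of these, 1 rose (3.57%), 12 fell (42.9%) and 15 did not pass, with a median of -0.17. Among all genes tested, 7.21% rose and 10.8% fell. Without mimic array 1, 2 of the listed genes rose. CCNE2, a cyclin of S phase entry, went from 9.82, 9.72 and 9.73 to 10.75, 10.88 and 10.71, a rise of 1.03. GINS2 and PRIM1, parts of the replication machinery, fell by 0.59 and 0.49. RRM2 rose, as did CCNE2, while 12 of the listed S phase genes fell, a count from 8 to 13 in other settings. Every mimic array lay above every control array for 5 of the 28 genes and below for 16, beside 19.2% and 22.4% of all genes. The part of cell cycle position in any member's change was not tested.

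Genes that feed or drain the nucleotide pools moved in both directions as well. Of 13 measured folate genes that supply carbon to purines and thymidylate, 1 rose (7.69%) and 4 fell (30.8%), beside 7.21% and 10.8% of all genes. MTHFD2, the mitochondrial dehydrogenase of that route, stood at 11.76, 11.60 and 11.68 in the control arrays and at 12.74, 12.64 and 12.60 in the mimic arrays. SHMT2 fell by 0.50 and SHMT1, its cytosolic counterpart, by 0.46. These hydroxymethyltransferases pass the serine carbon to folate.

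Of 7 genes of ribose phosphate supply, 2 rose and 2 fell (28.6% each), beside 7.21% and 10.8% of all genes. PGM2, whose product interconverts ribose phosphates and so links nucleosides to sugar metabolism, stood at 12.42, 12.50 and 12.43 in the control arrays and at 11.01, 11.04 and 11.08 in the mimic arrays. It was 2.64-fold lower (log2 fold change -1.40 ± 0.0416 SE, adjusted p = 5.1e-05, limma), the 19th lowest log2 fold change among all genes, and it was named by the rule for this list. PGD, of the oxidative pentose phosphate pathway, fell by 0.64. The non-oxidative enzymes TALDO1 and TKT passed at 0.25 and 0.21. TALDO1 no longer passed when control array 1, 2 or 3 was dropped (adjusted p 0.0773, 0.0765 or 0.0733) or mimic array 1 or 2 (0.102 or 0.116). The same held for TKT with control array 3 (0.0737) or mimic array 1 or 2 (0.064 or 0.0696).

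Of 21 measured genes of nucleotide breakdown and pool cleaning, 2 rose (9.52%) and 5 fell (23.8%), beside 7.21% and 10.8% of all genes. The falls became 3 without control array 2, control array 3 or mimic array 2, and in each of these fits NT5C3B and DCTPP1, named here after their values were seen, did not pass. XDH, which oxidises hypoxanthine to uric acid, stood at 5.14, 5.25 and 5.08 in the control arrays and at 6.01, 5.96 and 6.02 in the mimic arrays. The rise of 0.84 ± 0.0698 SE passed (adjusted p = 0.000897, limma). DPYD, which starts the breakdown of pyrimidines and of fluorouracil, stood at 9.59, 9.61 and 9.61 in the control arrays and at 8.69, 8.83 and 8.90 in the mimic arrays, a fall of 0.80 ± 0.0617 SE (adjusted p = 0.000711, limma). ADA, adenosine deaminase, fell by 0.68. AMPD1 passed at 0.35, but its values of 3.47 to 3.89 lay below the array medians, and the call was lost when control array 1 or 3 (0.0528 or 0.0679) or mimic array 2 or 3 (0.0663 or 0.0534) was dropped.

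Among 10 other measured kinases and reductase subunits, none rose and 2 fell (20.0%), beside 7.21% and 10.8% of all genes. PRPSAP2, a regulatory partner of the PRPS enzymes, fell by 0.38, but did not pass without control array 3 (0.0544) or mimic array 2 (0.0545). NME4, a mitochondrial nucleoside diphosphate kinase, fell by 0.36. RRM2B, the p53-induced counterpart of RRM2, named here after its value was seen, was at -0.15 and did not pass (adjusted p = 0.0592, limma). Of 6 nucleoside transporters, SLC29A1 alone passed (16.7%, beside 18.0% of all genes), at -0.24. It passed in no fit on 5 arrays: dropping control array 1, 2 or 3 gave 0.091, 0.0886 or 0.115, and dropping mimic array 1, 2 or 3 gave 0.0705, 0.128 or 0.0948.

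Of the 14 members called, 9 passed whichever array was left out, namely RRM2, UPP1, NME1, TK2, PPAT, CMPK1, IMPDH2, ADK and DUT. With 3 arrays a group the smallest called change among the members was 0.19, and their median standard error was 0.0533.

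**Figure D4:**
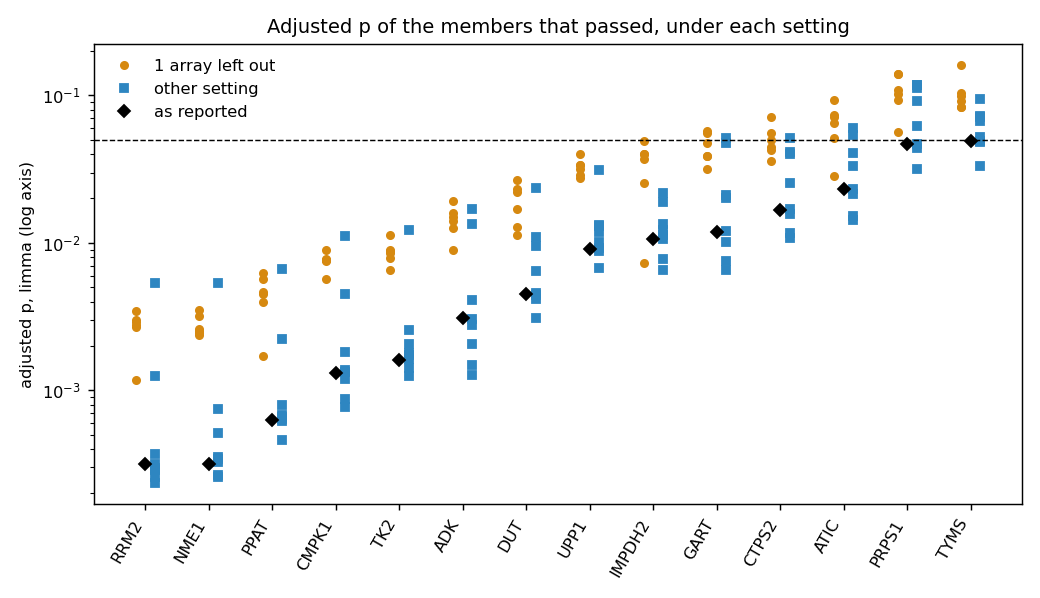
The y axis, on a log scale, gives the limma adjusted p of each of the 14 members called, with a diamond for the value as reported, circles for fits that leave out 1 array and squares for other settings at the same threshold, and the dashed line marks 0.05. RRM2, NME1, PPAT, CMPK1 and TK2 stay well under the line, while PRPS1 and TYMS, reported at 0.047 and 0.0493, lie above it in most fits.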

How the data were processed

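Each array of the deposited table has 1 value for every probe set, read here as log2 because the values span 1.62 to 19.9, narrower than linear signal would. The top values exceed log2 scanner output, so folds hold on this scale only. RNA (100 ng) was amplified and biotin-labelled, per the labels' protocols. The submitters' processing notes name MAS5 alone. Its version and role, how probe sets were summarized and which build was used: not given in the sources used here.

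Normalization was kept as the authors deposited it. Of 70523 probe sets, 2995 control probe sets and then the 25% with the lowest mean were left out, and 50646 were tested. Symbols came from the platform annotation (1 symbol for 23781 of 67528 transcript clusters, several for 1543, none for 42204), and 23471 matched RefSeq of GRCh38.p14. The test was limma (version 3.58.1, under R 4.3.3) with a linear model and empirical Bayes moderation with trend, two-sided, adjusted by Benjamini-Hochberg over all probe sets tested at a threshold of 0.05. It was tested on simulated data. Figures used matplotlib 3.10.9 under Python 3.11.15. The number of arrays limits the precision.

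The members and lists were chosen with earlier results of these data known. All members are named, and each further list gives up to 2 highest and 2 lowest genes that passed. Alternatives were other filters, scalings, variance models, probe set averages, a stricter threshold, the replicate block and leaving out each array.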

Additional observations from a re-analysis of the deposited data

How the results depend on the processing

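Across 15 other settings no called member changed sign, and 8 of the 14 called members passed in each. The 4 rises became 2, RRM2 and UPP1, with no filter, median centring, quantile normalization, no mean-variance trend, the replicate block or a threshold of 0.01. With 1 array left out they ranged from 2 to 3, the third being IMPDH1 without mimic array 3, and the stricter filter gave 5, IMPDH1 added. The 10 falls became 6 at the threshold of 0.01. The members' median was -0.059 with median centring, -0.043 with quantile normalization, and from -0.043 to -0.026 with 1 array left out. All genes called went from 18.0% to 27.4% with the stricter filter, 9.83% at 0.01, and 11.2% to 14.4% with 1 array left out. Deviations from the group means correlated at 0.142, -0.0497 and 0.182 between same-numbered control and mimic arrays. Between differently numbered arrays they correlated at -0.226 to 0.115. The labels do not say whether a number marks a shared culture or day, and these values do not settle it. With the replicate block 7 members fell, and PRPS1 (0.118), GART (0.0511), ATIC (0.0603), CTPS2 (0.0518) and TYMS (0.0729) were lost. The further lists ranged from 8 to 13 falls and 1 to 3 rises for S phase genes, 2 to 6 falls and 1 to 3 rises for breakdown, 1 to 3 falls for other kinases, 0 to 2 rises for ribose supply and 0 to 1 falls for transporters, and the folate list kept within 3 to 5 falls. AMPD1 was not tested under the stricter filter. The 6 pair differences moved by less than the replicate spread.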
